A study of Mus musculus with 24 samples.

Results

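Peaks of H3K27ac in the quadriceps myofibers of female mice harvested 4 days after the last of a series of weekly prednisone injections were compared with those of vehicle-treated females, gene by gene at promoters. A promoter was taken as 1000 bp before to 100 bp after the start of a curated RefSeq transcript, and 20021 autosomal protein-coding genes with 25065 distinct starts were examined. The 2 lists held 103865 autosomal peaks, 37614 in vehicle and 66251 at day 4, of 469078 peaks in the 8 lists of the series. A gene was called gained where day 4 peaks that overlapped no vehicle peak were the only peaks at its promoter, and 4509 genes (22.5% of those examined) were in this class. It was called kept where overlapping peaks of both lists lay at its promoter (4761 genes) and lost where only vehicle peaks without a day 4 overlap did (157 genes).

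The mice were C57BL/6J (C57BL/6 in the sample labels), 10 weeks old at the start, and were treated by intraperitoneal injection for 4 weeks. The treated females were given 1 mg/kg prednisone, a glucocorticoid prodrug, once weekly and vehicle on the other days, and the vehicle group received DMSO in PBS. Myofibers were dissociated from quadriceps with collagenase, and chromatin from each group gave 2 H3K27ac libraries and 1 input library. The files analysed are 1 deposited peak list for each group, in which the libraries are not separate, and the reads were not analysed here. No replicate error or test is therefore given for any value below, and the intervals printed (Wilson, 95%) cover counting error only.

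Acetylation of lysine 27 of histone H3 is deposited by p300 and CBP and marks active promoters and enhancers. Glucocorticoids act through the glucocorticoid receptor (GR), a nuclear receptor that moves to the nucleus on hormone binding, recognizes a palindromic element and recruits these acetyltransferases. In skeletal muscle its known targets include regulators of protein breakdown such as Trim63 and Fbxo32, and the metabolic factor Klf15. Most housekeeping genes start within CpG islands, whereas many genes of the contractile apparatus start from promoters that are poor in CpG.

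Promoters of 3 glucocorticoid target genes are shown first, since they carry the GR consensus searched for, ACANNNTGT, which reads the same on both strands. The sequences are those of RefSeq (GRCm38.p6, from 250 bases before to 50 bases after a start), 5′ to 3′ on the strand of the gene, with the match in capitals. Mt1 (chr8:94178839-94179138, plus strand) encodes a metallothionein and was gained, Glul (chr1:153899679-153899978, plus strand) encodes glutamine synthetase and came under a day 4 peak that overlapped vehicle signal only outside the promoter, and Map3k6 (chr4:133240568-133240867, plus strand) encodes a MAP kinase kinase kinase and was kept. Their matches begin at -92, -25 and -179 relative to the start. They are not typical of the list: of 24 targets with such a sequence 6 held a match in any of theirs, and of the 6 gained targets 2 did.
Mt1: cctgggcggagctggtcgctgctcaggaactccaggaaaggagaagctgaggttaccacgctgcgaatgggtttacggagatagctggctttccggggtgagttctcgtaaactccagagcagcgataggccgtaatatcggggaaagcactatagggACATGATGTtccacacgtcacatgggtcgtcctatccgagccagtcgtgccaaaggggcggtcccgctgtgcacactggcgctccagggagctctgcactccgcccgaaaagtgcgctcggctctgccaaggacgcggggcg
Glul: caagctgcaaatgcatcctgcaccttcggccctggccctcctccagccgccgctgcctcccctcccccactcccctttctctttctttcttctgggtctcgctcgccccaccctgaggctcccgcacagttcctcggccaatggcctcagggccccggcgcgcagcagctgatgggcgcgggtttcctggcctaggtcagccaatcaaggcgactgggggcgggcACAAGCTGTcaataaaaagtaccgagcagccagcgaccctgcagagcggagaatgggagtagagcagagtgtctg
Map3k6: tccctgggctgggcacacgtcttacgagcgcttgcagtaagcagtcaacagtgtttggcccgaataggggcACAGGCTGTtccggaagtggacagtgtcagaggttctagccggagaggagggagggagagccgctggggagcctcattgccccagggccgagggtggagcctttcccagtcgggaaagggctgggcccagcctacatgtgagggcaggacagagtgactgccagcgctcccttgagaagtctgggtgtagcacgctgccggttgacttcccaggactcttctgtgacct

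The next 4 promoters are examples of high and low CpG content, with each CG in capitals. They do not stand for their classes. Over the 1101-bp window the median ratio of observed to expected CpG was 0.563 at gained and 0.631 at kept genes. Another Akt1 start, also under a day 4 peak, holds 8 CpG. Akt1 (chr12:112674227-112674526, minus strand), the kinase downstream of PI3K, and Gnai3 (chr3:108146103-108146402, minus strand), an inhibitory G protein subunit, were gained and hold 42 and 21 CpG. Pygm (chr19:6384158-6384457, plus strand), muscle glycogen phosphorylase, and Myh4 (chr11:67237562-67237861, plus strand), the myosin heavy chain of the fastest fibers, were kept and hold 4 and 1.
Akt1: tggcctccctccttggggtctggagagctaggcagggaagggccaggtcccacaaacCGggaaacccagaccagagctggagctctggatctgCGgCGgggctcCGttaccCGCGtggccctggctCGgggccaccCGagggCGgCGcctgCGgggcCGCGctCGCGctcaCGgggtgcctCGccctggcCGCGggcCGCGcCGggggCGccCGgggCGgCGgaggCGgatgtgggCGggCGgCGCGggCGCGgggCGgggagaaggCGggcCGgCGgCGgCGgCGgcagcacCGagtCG
Gnai3: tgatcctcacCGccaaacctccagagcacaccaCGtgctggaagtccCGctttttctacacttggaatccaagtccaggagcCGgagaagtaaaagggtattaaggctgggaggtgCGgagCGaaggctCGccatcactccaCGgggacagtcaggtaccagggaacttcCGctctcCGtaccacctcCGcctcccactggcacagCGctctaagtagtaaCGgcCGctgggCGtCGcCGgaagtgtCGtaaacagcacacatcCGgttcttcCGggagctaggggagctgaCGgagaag
Pygm: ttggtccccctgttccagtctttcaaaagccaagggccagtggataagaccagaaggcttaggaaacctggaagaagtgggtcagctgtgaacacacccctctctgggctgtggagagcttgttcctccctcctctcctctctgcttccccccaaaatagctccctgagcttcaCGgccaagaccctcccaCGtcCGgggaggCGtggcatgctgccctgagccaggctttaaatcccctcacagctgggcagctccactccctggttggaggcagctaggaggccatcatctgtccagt
Myh4: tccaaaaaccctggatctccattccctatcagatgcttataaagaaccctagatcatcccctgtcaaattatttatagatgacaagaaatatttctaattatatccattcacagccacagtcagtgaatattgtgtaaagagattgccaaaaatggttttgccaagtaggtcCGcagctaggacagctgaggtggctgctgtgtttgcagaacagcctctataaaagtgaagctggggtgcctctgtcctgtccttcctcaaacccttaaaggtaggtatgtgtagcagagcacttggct

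The lists differed in depth and in the lowest Score that the caller gave a peak. From the deposited values the vehicle list rested on 27.5 M H3K27ac tags and the day 4 list on 49.0 M. The findPeaks Score is the caller's count of tags in the seed window of a peak, not over its whole width. The lowest Score was 10 in vehicle and 24 at day 4, which is 3.63 and 4.9 tags per 10 M. Peaks other than the largest held 5.28% of the tags in vehicle and 10.9% at day 4. Promoter peaks were present at 5024 genes (25.1%) in vehicle and at 10415 (52.0%) at day 4. The parts that depth, enrichment and treatment had in this difference cannot be told apart with 1 list for each group, so every class was also formed with the day 4 list reduced to its 37614 highest Scores.

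The tissue matched its label by its defining genes. All 10 myofiber markers (Acta1, Atp2a1, Ckm, Eno3, Myh4, Mylpf, Pygm, Ryr1, Tnnt3 and Ttn) had overlapping promoter peaks in both lists. Their normalized tags, scaled to 10 M tags per list, summed to 409.2 in vehicle and 1810.5 at day 4. With equal numbers 9 were kept and Acta1 was lost. Markers of other cell types also differed between the lists, and in bulk chromatin more cells of a type and more signal per cell cannot be told apart. The counts below stand beside 22.5% of all genes gained, or 17.2% with equal numbers. The same sum over all genes was 123219.7 in vehicle and 438267.4 at day 4. Of 13 endothelial markers 5 were gained (Cdh5, Kdr, Robo4, Tek and Tie1) and 5 kept, with summed tags of 94.1 and 707.4. Esam was extended, and Emcn and Vwf were unmarked in both lists. With equal numbers 4 were gained, 3 kept and 2 lost (Cldn5 and Pecam1). Of 9 satellite cell markers 4 were gained (Calcr, Cdh15, Fgfr4 and Myf5, with 5.11 to 9.19 tags), of which Cdh15 alone remained with equal numbers. Pax7 was unmarked in both lists, and the sums were 0 and 268.7, of which 243.6 came from the extended gene Sdc4. Of 13 macrophage markers 3 were gained (C1qb, Cd68 and Fcer1g), with Ptprc, Adgre1 and Csf1r unmarked in both and sums of 0 and 34.7, and with equal numbers Cd68 alone was. Of 11 fibroblast markers 4 were gained (Col1a1, Col1a2, Ly6a and Pdgfra), Dcn was lost, Gsn kept and 5 unmarked (Col3a1, Dpt, Lum, Mfap5 and Pi16), with sums of 16.0 and 52.9. The other marker sums were 36.3 in vehicle and 87.1 at day 4 for 8 pericyte and smooth muscle genes, 54.9 and 81.7 for 10 adipocyte genes, 39.3 and 133.2 for 6 Schwann cell genes and 61.0 and 238.5 for 10 neuron genes, one of which, Camk2a, is also a muscle gene. No erythroid or liver marker (6 and 8 genes) had a promoter peak in either list, and of 10 germ cell markers only Zp2 did, with 5.5 tags at day 4. From vehicle to day 4 the fibroblast, pericyte, adipocyte and Schwann cell sums rose by a smaller factor than the sum over all genes. The myofiber, endothelial and neuron sums rose by a larger one. The part of these cells in the gained class was not tested.

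Gained promoters were about as many as kept ones, and lost promoters were few. Beside the 4509 gained (interval 21.9 to 23.1%), 4761 kept (23.8%) and 157 lost genes (0.784%), there were 1048 extended genes (5.23%), whose day 4 peak reached the promoter from a site that vehicle peaks also marked, 97 moved genes (0.484%) with peaks of both lists that did not overlap, 9 withdrawn genes (0.045%), the reverse of extended, and 9440 unmarked genes (47.2%). With equal numbers of peaks there were 3444 gained (17.2%), 4076 kept (20.4%) and 837 lost genes (4.18%), with 4.35% extended, 0.514% moved, 0.04% withdrawn and 53.4% unmarked. Of the 4509 gained genes 3435 (76.2%) remained gained and the other 1074 had no promoter peak left. Of the 837 lost genes, 655 were kept when all peaks were used, so the larger lost class came mainly from day 4 peaks of low Score that the reduction removed. A low Score need not mean few tags over the peak. With equal numbers by normalized tags 177 genes were lost. The bars of class sizes show both settings.

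**Figure D1:**
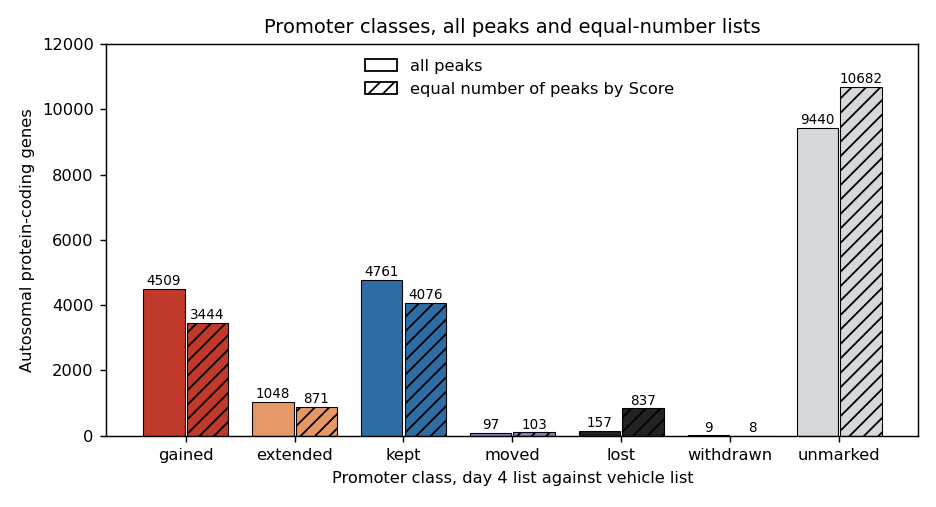
Number of autosomal protein-coding genes (vertical axis) in each promoter class (horizontal axis) with all peaks (plain bars) and with the same number of peaks in both lists (hatched bars). Gained genes number 4509 and 3444, kept genes 4761 and 4076, and lost genes 157 and 837.

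Of the 66251 day 4 peaks 54197 (81.8%) overlapped no vehicle peak, and 9.29% of these (9.05 to 9.54) lay at a promoter, against 45.4% (44.5 to 46.3) of the kept day 4 peaks. Of the vehicle peaks 23583 (62.7%) had no day 4 overlap. Of these lost peaks 85.3% were a single 500-bp window, their median Score of 10 was the lowest the vehicle list contains, and 1.40% (1.26 to 1.56) lay at promoters. Their median was 9.08 normalized tags at 12.7 times the input, against 6.33 tags at 4.8 times for gained day 4 peaks. With equal numbers 27887 day 4 peaks were gained, 13.3% of them at promoters.

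Gained promoter peaks were weaker and narrower than kept ones. The strongest day 4 peak of a gained promoter had a median of 17.4 normalized tags over 1150 bp, against 46.6 tags over 2110 bp at kept promoters. Per kilobase the medians were 14.2 and 21.0 tags. At kept promoters the called peaks differed between the lists more in width than in tags per kilobase of their own width. These densities are taken over each list's own peak and do not compare the same bases. The part of depth in the called width was not tested. The median vehicle peak there held 19.6 tags over 850 bp, the median ratio of day 4 to vehicle was 2.24 for tags and 2.22 for width, and for tags per kilobase it was 1.02. Tags were higher at day 4 at 4498 of the 4761 kept genes (94.5%) and density at 2505 (52.6%).

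Few classes rested on small gaps between peaks. Of 4332 distinct gained promoter peaks 172 (3.97%) lay within 1 kb of a vehicle peak and 13 within 100 bp, the smallest gap being 15 bp. Of the kept ones, 25 overlapped by 100 bp or less, the smallest overlap being 14 bp. The median distance from a gained gene's start to the nearest vehicle peak was 17.7 kb, against 32.4 kb for unmarked genes and 0.385 kb for extended genes. A single gained peak covered the promoters of 2 or more genes in 323 cases (7.46%), which account for 646 genes, so neighbouring genes of this kind are not separate observations.

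**Figure D2:**
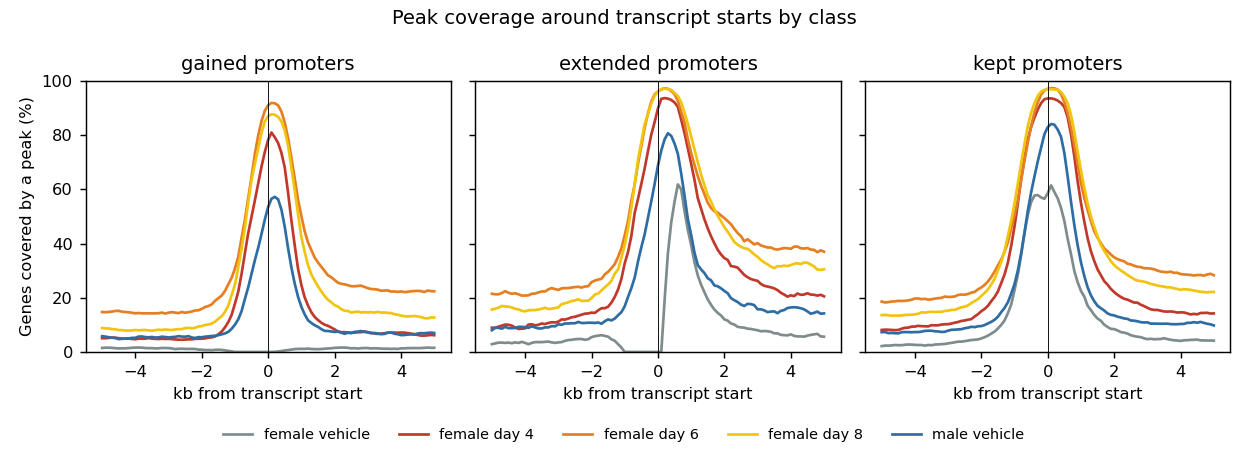
Percent of genes (vertical axis) covered by a peak at each distance from the transcript start (horizontal axis, kb) for gained, extended and kept promoters, 1 line for each list. In the gained panel day 4 reaches 80.99% at 100 bp after the start, the male vehicle list 57.24% at 200 bp, and the female vehicle list stays at or below 1.64%.

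In the coverage plot, high day 4 and low female vehicle coverage near the starts of gained genes follow from the class rule. That rule asks for a day 4 peak at the promoter and no vehicle peak there, so the plot is descriptive only. At gained genes the share covered by a day 4 peak was highest 100 bp after the start (80.99%) and 5.06% at 5000 bp before it. At extended genes vehicle coverage peaked 600 bp after the start (61.83%), inside the gene, while day 4 coverage peaked at 200 bp (93.7%).

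The gained promoters with the highest Scores belonged to genes of several kinds. Sik1, a salt-inducible kinase that restrains CREB and MEF2 coactivation, had a 2756-bp day 4 peak at chr17:31856280-31859036 with 54.5 normalized tags, a Score of 108 and 6.87 times the input. Wdr33, a subunit of the polyadenylation complex, had a narrower peak of 980 bp with 31.7 tags and 26.58 times the input. Gnai3 had 41.9 tags over 1503 bp. Acat2, an acetyl-CoA acetyltransferase, had 26.1 tags at 13.17 times the input. Socs5, a suppressor of cytokine signaling, Btbd9 and Fam204a had 22.1, 23.3 and 30 tags. Chchd7 and Plag1, a zinc finger transcription factor, share 1 peak of 22.1 tags between their starts. Each of the genes named here had promoter peaks at day 6, at day 8 and in the male vehicle list, where Sik1 had 432.4, 234.5 and 51.6 tags.

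Glucocorticoid target genes mostly had a promoter peak in vehicle already. Of 30 such genes 18 were kept, 6 gained (20%, beside 22.5% of all genes), 4 extended and 2 unmarked. Of the 12 without a vehicle peak, 10 (83.3%) had one at day 4, against 37.1% over all such genes. This was not particular to the targets. In the other gene groups the share ran from 33.3% (calcium handling) to 100% (oxidative phosphorylation and proteasome among them). The share of target genes with a vehicle peak was 60%, against 25.1% over all genes.

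Of the 6 gained targets 5 remained gained with equal numbers, the exception being Fam107a. Ddit4, the mTORC1 inhibitor also called REDD1, had 48.2 tags over 2331 bp at day 4. The neighbouring metallothionein genes Mt2 and Mt1 had 39.4 and 30.4 tags in separate peaks (chr8:94170880-94173866 and chr8:94178415-94180287). Cebpb, a bZIP transcription factor, had 32.1 tags over 2663 bp. Fam107a and Hif3a, which encodes a hypoxia-inducible factor subunit, were weaker, at 13.9 and 13.3 tags. Ddit4, Mt1, Mt2 and Hif3a also had a peak in the male vehicle list, where Cebpb and Fam107a did not.

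Broad day 4 peaks covered the extended targets. Klf15, a factor that drives branched-chain amino acid use, lay under a 16741-bp peak of 368.6 tags (chr6:90461128-90477869), but its Score of 24 was the lowest in the list, so it was unmarked with equal numbers. Dusp1, a MAP kinase phosphatase, had 211.4 tags, Glul 87.8 and Pdk4, the pyruvate dehydrogenase kinase that spares glucose, 59.0. These 3 remained extended with equal numbers.

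Among the 18 kept targets 17 (94.4%) had more tags at day 4, beside 94.5% of all kept genes. Their median ratio was 3.44 for tags, 4.02 for width and 1.16 for tags per kilobase, against 2.24, 2.22 and 1.02 over all kept genes. Other kept groups had similar tag ratios, among them sarcomere and Z-disc (3.48), glucose and glycogen (3.59) and clock genes (3.88). Klf9, a circadian and glucocorticoid-induced zinc finger factor, had 86.1 tags over 3917 bp in vehicle and 535.2 over 19397 bp at day 4. Bcl6, a transcriptional repressor, had 73.0 tags in vehicle and 419.9 at day 4 and Per1, a period protein of the clock, 211.8 and 379.4. The muscle ubiquitin ligases Trim63 (MuRF1) and Fbxo32 (atrogin-1) had 12.0 and 25.8 tags in vehicle and 77.8 and 138.5 at day 4. Foxo1 and Foxo3, which drive both of these genes, had 24.7 and 21.1 tags in vehicle and 100.9 and 102.9 at day 4. Sesn1, a sestrin, was the exception, with 40.7 in vehicle and 34.9 at day 4. The remaining kept targets (Angptl4, Cdkn1a, Cebpd, Errfi1, Gadd45g, Map3k6, Nfkbia, Pik3r1, Sgk1 and Zbtb16) had between 32.7 and 186.6 tags at day 4. Klf9, Sgk1, Foxo3 and Map3k6 had Scores of 24 to 26, below the 27 at which the equal-number list ends, and were lost in that setting.

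**Figure D3:**
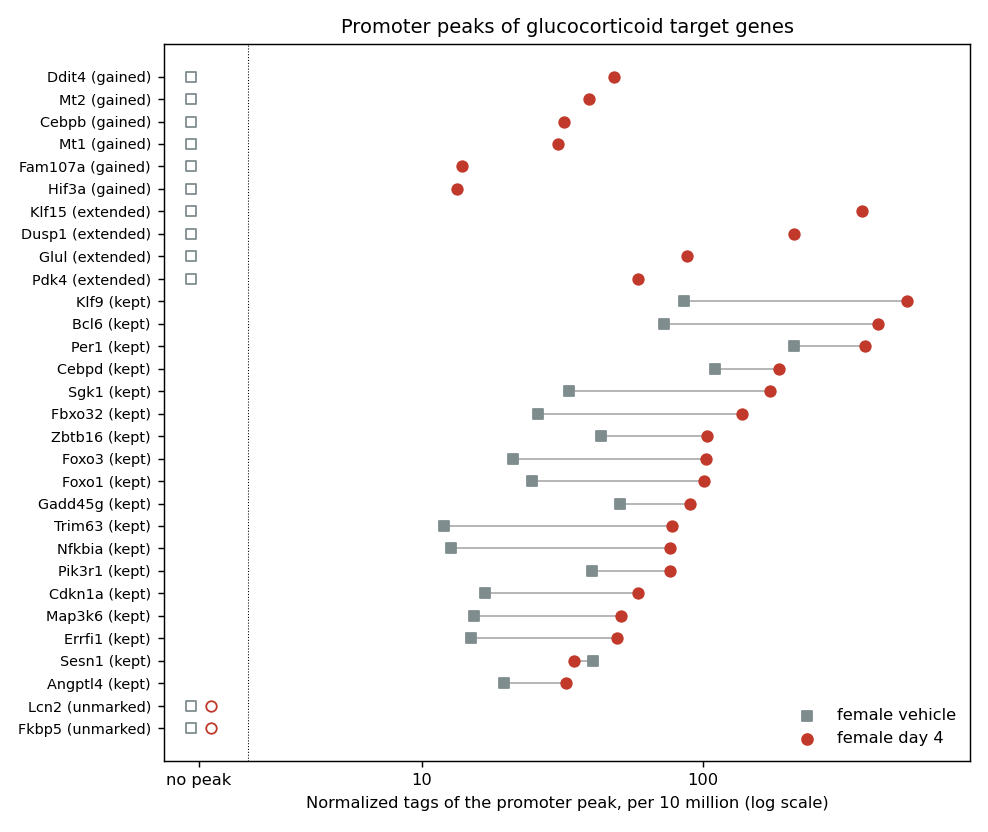
Normalized tags per 10 M tags (horizontal axis, log scale) of the promoter peak of 30 glucocorticoid target genes in female vehicle (grey squares) and at female day 4 (red circles), with open symbols at the left where a list had no promoter peak. The red circle lies to the right of the grey square for 17 of the 18 kept genes, Sesn1 being the exception.

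The gene for FKBP5, the GR co-chaperone, had no promoter peak in either list. Within 10 kb of the gene body there were 6 gained, 3 kept and 2 lost peaks, and its promoter had 60.7 tags at day 6 and 30.7 at day 8. Lcn2, lipocalin 2, was likewise unmarked at its start in both lists, with 41.8 tags at day 6. Per1 had 4 gained and 2 kept day 4 peaks within 10 kb of its gene body and Zbtb16, a zinc finger repressor, 23 gained and 11 kept. The receptor gene itself, Nr3c1, was kept, with 37.1 tags in vehicle and 108.0 at day 4, as were the chaperones Hsp90aa1 and Hsp90ab1. Of 13 steroid receptors and cofactors 2 were gained (15.4%, beside 22.5% of all genes). Among them was Fkbp4, an immunophilin of the receptor complex, with 38.8 tags.

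Genes that the study examined by GR or H3K27ac ChIP were divided among the classes. Akt1 was gained, with 19.4 tags over 887 bp and a Score of 63. Pik3ca, the catalytic PI3K subunit, was kept, with 25.4 tags in vehicle and 44.9 at day 4, and Pik3c2a had 47.6 and 52.3. Tnnc1, slow troponin C, had 11.6 tags in vehicle and 70.0 at day 4, Slc27a1, a fatty acid transporter, 7.99 and 47.6, and the estrogen receptor gene Esr1 17.8 and 68.8. Cidea and Cidec, both lipid droplet proteins, Tnnt1, slow troponin T, and the calcium channel gene Cacna1h had no promoter peak in either list, and within 10 kb of their gene bodies lay 3, 2, 2 and 3 gained peaks. The examined sites can lie outside the promoter window, so these values describe the starts alone.

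Of the 16 gene groups, the insulin, IGF1 and PI3K pathway had the largest gained share, 13 of 29 genes (44.8%, beside 22.5% of all genes). Insulin and IGF1 receptors signal through IRS adaptors and PI3K to AKT and the mTOR complexes. In the pathway 11 genes were kept and 4 extended (the receptor Insr, the adaptor Irs1, Eif4ebp1 and Rptor), so that all 17 genes without a vehicle peak had a promoter peak at day 4, beside 37.1% of all such genes. With equal numbers 4 of them (Pik3cb, Itga3, Itga5 and Eif4ebp1) were unmarked. Pdpk1, the kinase that activates AKT, had 15.1 tags, Rictor, the defining subunit of mTORC2, 14.1, and the binding protein gene Igfbp5 25.9. Mtor, Rheb and Igf1r were also gained. The inhibitors Tsc1 and Tsc2 were kept and had 7.99 and 27.6 tags in vehicle and 42.5 and 43.9 at day 4. Igf1 itself was lost: a 500-bp vehicle peak of 11.3 tags (chr10:87859981-87860481) had no counterpart at day 4, while the promoter carried 34 tags at day 6 and 33.5 at day 8. Of the whole pathway 96.6% carried a promoter peak in vehicle-treated males. With equal numbers 10 of the 13 were still gained.

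Genes of lipid use were mostly marked at day 4 (85.7%, beside 52.0% of all genes). Of 56 genes 25 were kept, 13 gained (23.2%, beside 22.5% of all genes), 9 extended, 8 unmarked and 1 moved, and 73.3% of the 30 genes without a vehicle peak had one at day 4, beside 37.1% of all such genes. Fabp3, the muscle fatty acid binding protein, had a 5112-bp gained peak of 69.2 tags. Dgat1, which closes triglyceride synthesis, had 32.3 tags, and Acss2 and Acsf2, acyl-CoA synthetases, 19 and 10.2. Hadha and Hadhb, the subunits of the mitochondrial trifunctional protein, share 1 promoter peak that had 42.9 tags in vehicle and 85.8 at day 4. Srebf1, the lipogenic factor SREBP1, had 23.3 tags in vehicle and 75.8 at day 4 and Acot2 12.7 and 33.1. Among the unmarked were Acaca, Acacb and Slc25a20.

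Glycolytic and glycogen genes were mainly kept (19 of 28, 67.9%, beside 23.8% of all genes), with 6 extended and 2 gained (7.14%, beside 22.5%). Of the 9 without a vehicle peak 88.9% had one at day 4, beside 37.1% of all such genes. The gained pair was Gyg, glycogenin, with 52.3 tags and Slc2a1, the basal glucose transporter GLUT1, with 18.8. Gys1, glycogen synthase, had 9.08 tags over 500 bp in vehicle and 139.7 over 6059 bp at day 4, Pygm 45.1 and 197.5 and Gapdh 51.6 and 129.1. Fbp2, muscle fructose bisphosphatase, had 49.4 in vehicle and 45.3 at day 4.

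Every gene of oxidative phosphorylation, the proteasome and the cytosolic ribosome had a promoter peak at day 4, beside 52.0% of all genes, but not with equal numbers, where 7, 5 and 4 were lost and 2 of each group unmarked. Of 76 oxidative phosphorylation genes 54 were kept, 16 gained (21.1%, beside 22.5% of all genes) and 6 extended. Ndufa2, Ndufs4, Ndufs6 and Ndufab1, all of complex I, were gained with 39.2, 17.4, 34.9 and 18.0 tags. Sdha, the flavoprotein of complex II, had 12.4 tags in vehicle and 44.7 at day 4 and Cycs, cytochrome c, 36.0 and 72.5. Of 76 ribosomal protein genes 47 were kept, 21 gained (27.6%), 7 extended and 1 moved. Among the gained ones Rpl24, Rps10 and Rpl37a had 16.1, 17.2 and 23.5 tags. Of 36 proteasome genes 24 were kept, 7 gained (19.4%) and 5 extended, among them Psmc4, a base ATPase, gained with 17.6 tags, and Psmb6, a catalytic subunit, with 16.1. The male vehicle list marked 98.7% of the oxidative phosphorylation, 94.7% of the ribosomal and 97.2% of the proteasome genes, and with equal numbers 16, 19 and 5 of them were gained.

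**Figure D4:**
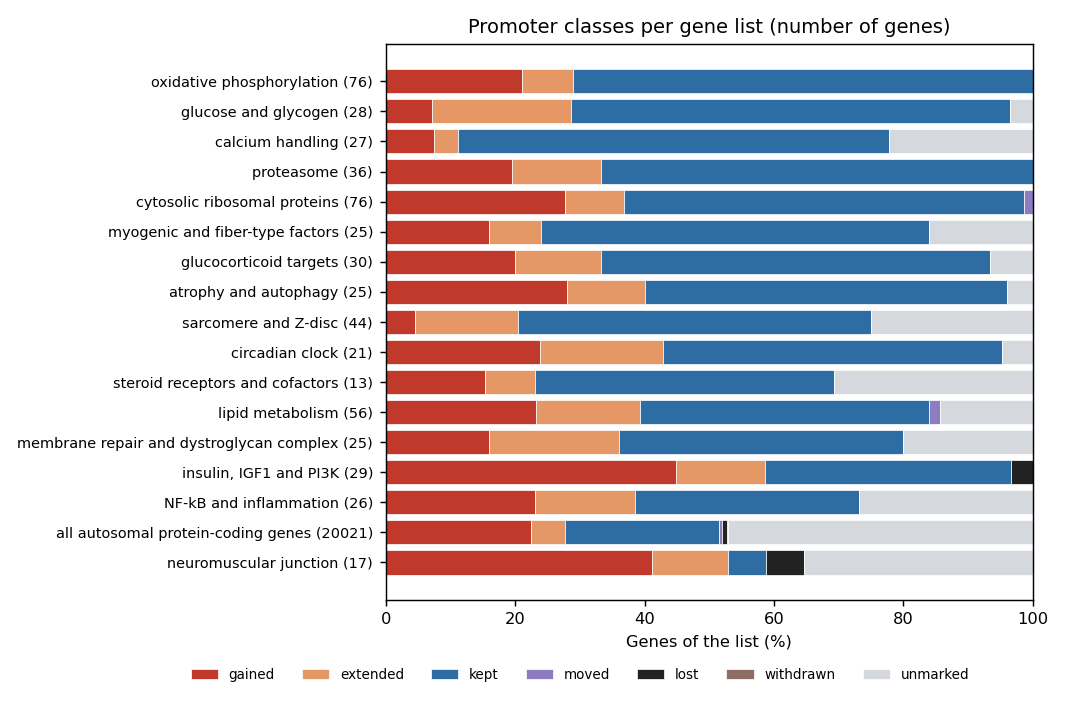
Percent of the genes of each list (horizontal axis) in each promoter class with all peaks, for 16 gene groups and all autosomal protein-coding genes, with the number of genes in brackets and lists ordered by kept share. The gained part is longest for insulin, IGF1 and PI3K (44.8%) and shortest for sarcomere and Z-disc (4.55%), against 22.5% for all genes.

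Contractile genes stood at the other end by gained share. Of 44 sarcomere and Z-disc genes 24 were kept (54.5%), 7 extended, 11 unmarked and 2 gained (4.55%, beside 22.5% of all genes). Of the 20 without a vehicle peak 45.0% had one at day 4, beside 37.1% of all such genes. Kept genes had broad day 4 peaks. Actn3, the Z-disc protein of fast fibers, had 9.08 tags over 500 bp in vehicle and 107.4 over 5750 bp at day 4, Mylk2, skeletal myosin light chain kinase, 29.1 and 311.8, Des, desmin, 38.5 and 144.2 and Ttn, titin, 12.7 and 105.2. The median ratio of day 4 to vehicle tags was 3.48 over the 24 kept genes and 2.24 over all kept genes. It followed width (3.48), with a density ratio of 1.05, and the fold over input was higher at day 4 in 9 of the 24 genes, with a median ratio of 0.65. The slow-fiber genes Myh7, Myl2, Myl3, Tnni1 and Tnnt1 were unmarked in both lists, as were Myh1 and Myh2, while slow troponin C (Tnnc1) was kept. The gained genes were Actn2, the alpha-actinin of all fibers, with 31.7 tags, and Smtnl1 with 5.92. Of 27 calcium handling genes 18 were kept (66.7%, beside 23.8% of all genes) and 2 gained (7.41%, beside 22.5%). Of the 9 without a vehicle peak 33.3% had one at day 4. Among the kept were Cacna1s, the voltage sensor (25.1 and 58.2), Hrc (70.5 and 171.3) and Orai1, the store-operated channel (18.9 and 140.5). Stac3, an adaptor of the voltage sensor, was gained with 65.8 tags, and Atp2a2, the slow-fiber calcium pump, with 6.94.

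Neuromuscular junction genes were rarely marked in vehicle (11.8%, beside 25.1% of all genes). Of 17 genes 7 were gained (41.2%, beside 22.5% of all genes) and 1 was kept, and with equal numbers 4 remained gained, beside 17.2% of all genes, and none was extended. Chrnb1, Chrne and Rapsn, 2 acetylcholine receptor subunits and the rapsyn that clusters the receptor, had 18.2, 14.3 and 44.3 tags at day 4, and Lrp4, the agrin coreceptor, 23.9. The kinase gene Musk and the agrin gene Agrn were unmarked in both lists. Nrg1, neuregulin, was lost, with 8.36 tags over 500 bp in vehicle and no promoter peak at day 4, 6 or 8 or in the male vehicle list.

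Membrane repair and dystroglycan complex genes were kept in 11 of 25 cases (44.0%, beside 23.8% of all genes) and gained in 4 (16.0%, beside 22.5%). Among the kept were Dysf, dysferlin (32.7 and 61.5 tags), Sgca, a sarcoglycan (29.1 and 116.6), and Trim72, which nucleates repair patches (43.2 and 64.7). Anxa6, Cav3, Sgcb and Myof were gained with 26.1, 29.0, 12.9 and 5.51. Of 25 myogenic and fiber-type factors 15 were kept, including Mef2a (18.5 and 80.3) and Nfix (9.81 and 49.2), whereas Tead1 had 29.8 in vehicle and 26.3 at day 4. Myog, which drives terminal differentiation, was gained with 33.1 tags, Klf5 with 27.6, Prox1, a slow-fiber factor, with 8.99 and Myf5 with 5.11.

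Atrophy and autophagy genes were kept in 14 of 25 cases (56.0%, beside 23.8% of all genes) and gained in 7 (28.0%, beside 22.5%). Map1lc3a, an LC3 of the autophagosome, had a gained peak of 80 tags over 3982 bp and Bnip3l, a mitophagy receptor, one of 41.9. The clock genes were nearly all marked at day 4 (20 of 21, beside 52.0% of all genes). Per2 was gained with 47.0 tags, Npas2 with 5.72 and Csnk1d, a kinase that phosphorylates period proteins, with 117.6. Nr1d1, the repressor REV-ERBα, had 83.6 tags in vehicle and 242.0 at day 4, Nfil3 19.3 and 180.5 and Cry2 20.3 and 88.6. Of 26 NF-kB and inflammation genes 6 were gained (23.1%, near the 22.5% of all genes), among them Irf1, an interferon regulatory factor, with 40.6 tags and Cxcl10, a chemokine, with 12.3, while Il6, Tnf, Il1b and Ccl2 were unmarked in both. With equal numbers 3 of the 6 were gained.

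Lost promoters rested on small vehicle peaks. The median was 9.81 tags over 500 bp. Of the 10 with the highest Scores that stayed lost with equal numbers, Aida and Brox share 1 peak of 305.2 tags that stood only 2.17 times above input, and both starts carried 316.1 tags at day 6. Nnmt, nicotinamide N-methyltransferase, had 15.6 tags, Sh2b2, an adaptor of the insulin receptor, 14.5 and Atp1b1, a sodium pump subunit, 12.4, and each of these 3 promoters was marked again at days 6 and 8. Kif28, Zfp985 and 4931408C20Rik had 13.8, 17.1 and 41.1 tags and no peak at day 6 or 8, and Zfp738 and Lgi4 had 10.9 tags each.

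Kept promoters with the highest day 4 Scores were Sfi1, a centrosomal protein gene (Score 472, 197.7 tags in vehicle and 254.4 at day 4, at 2.09 times the input), Map3k2, Pfdn4, a prefoldin subunit, Msi2, an RNA-binding protein gene, and Ccnk, cyclin K. The last 4 had 20, 21.1, 14.9 and 38.5 tags in vehicle and 37.0, 43.9, 42.1 and 54.3 at day 4.

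Later female lists and the male vehicle list, which the classes did not use, marked most of the gained promoters, and the male prednisone lists marked a minority. Of the 4509 genes 4342 (96.3%) had a promoter peak in females at day 6, 4208 (93.3%) at day 8 and 4181 (92.7%) at both, beside 68.0% and 60.8% of all genes at each day. In vehicle-treated males 3214 (71.3%, 69.9 to 72.6) had one, beside 50.4% of all genes, and in males at day 4 1422 (31.5%) did, beside 28.0%. At male days 6 and 8 the shares were 28.2% and 38.3%, beside 28.9% and 32.9% of all genes. Of the genes unmarked in both female lists 14% had a peak in the male vehicle list, and of the kept genes 95% did. In all 6 other lists 128 gained genes (2.84%) were unmarked, beside 0.021% of kept genes and 57.1% of the genes unmarked in both female lists. Of lost promoters 40.1% (32.8 to 47.9) were unmarked in all 6, but with equal numbers 7.65% of the 837 lost genes were. Of these 837 genes 87.8% were marked at both later female days, against 37.6% of the 157 lost with all peaks.

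**Figure D5:**
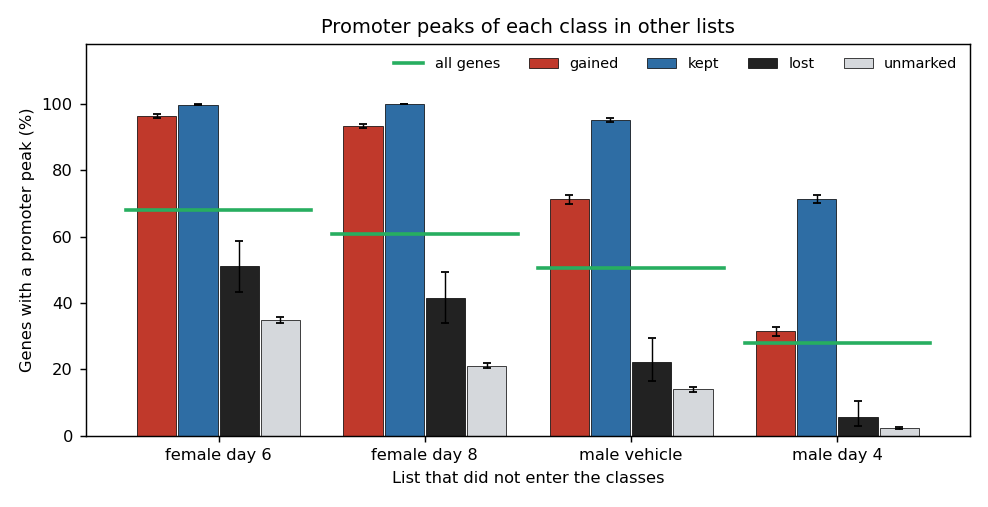
Percent of the genes of each class with a promoter peak (vertical axis) in 4 lists that did not enter the classes (horizontal axis), with Wilson 95% intervals, and the share of all genes as a green line. Gained genes are marked in 96.3% of cases at female day 6, 93.3% at day 8, 71.3% in male vehicle and 31.5% at male day 4.

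Peaks at both later female days without a male vehicle peak were found at 22.7% of gained, 21.7% of lost, 11.9% of unmarked and 4.81% of kept promoters. The gained ones were 1025 genes, and 731 of them were gained with equal numbers too. Those with the highest Scores, chosen after the values were seen, included Gmeb1, which encodes a glucocorticoid modulatory element binding protein, Zwint, a kinetochore protein gene, Wwox, an oxidoreductase gene, and Hdac3, a histone deacetylase gene. The female day 6 and day 8 lists have 45.5% and 24.7% of their tags in peaks other than the largest, against 10.9% at day 4. The part of depth and enrichment in these shares was not tested.

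Median CpG content was higher at gained and kept promoters than at unmarked ones. Over the 1101-bp window of the most upstream start the ratio of observed to expected CpG had a median of 0.563 at gained, 0.631 at kept, 0.251 at lost and 0.23 at unmarked genes, and 0.451 over all. A ratio of 0.6 or more was found at 42.2%, 56.0%, 15.4% and 12.0%. With equal numbers the lost genes had a median of 0.579, and 46.9% had 0.6 or more. The kept class was mixed: kept sarcomere genes had a median of 0.277, near that of unmarked genes, and kept ribosomal protein genes 0.711. Gained members of the insulin group had 0.679.

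The share of gained promoters with the GR consensus lay below that of all promoters. ACANNNTGT was found in 22.0% (20.8 to 23.2) of gained windows, 20.1% (19 to 21.3) of kept, 28.7% (27.8 to 29.6) of unmarked and 24.9% of all. Letters that go with CpG-rich starts, searched on both strands, had higher shares in gained and kept windows. The GC box core GGGCGG was in 75.6% of gained, 77.1% of kept and 37.4% of unmarked windows (57.9% of all), and the ETS core CCGGAAG in 25%, 30.8% and 7.32% (17.7% of all). TATAAA ran the other way, at 39.2%, 37.2% and 53.6% (45.6% of all). These matches are letters in a window, and GR binding was not analysed here.

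The gained share of non-coding genes was below the 22.5% of coding genes. Of 3220 lncRNA genes 468 (14.5%) were gained and 440 kept, of 1136 miRNA genes 125 (11%) and 79, and of 122 snoRNA genes 16 (13.1%) and 27. Many of these lie inside or beside coding genes, so their peaks are partly the same ones.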

How the data were processed

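For each group of mice the authors sequenced H3K27ac chromatin immunoprecipitates of quadriceps myofibers, as 2 H3K27ac libraries and 1 input library. The submitters' processing notes name TopHat2 2.1.0, Bowtie2 2.2.6 and HOMER (no version listed), and the build was mm10. The way in which both libraries of a group entered 1 list is not given in the sources used here. The deposited lists hold a signal (the normalized tag count, H3K27ac tags in the peak scaled to 10 M tags), the findPeaks Score (tags at the peak, not scaled for depth) and the fold over input, a ratio required by the authors to be at least 2. The lists also hold total tags, scaled by HOMER to the depth of the input in 6 lists (in the other 2 the input was scaled to the H3K27ac tags), from which depth was worked out.

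Peaks were compared on 19 autosomes with an overlap of 1 bp or more, checked with bedtools 2.31.1, in Python 3.11.15 with pandas 2.3.3 and numpy 2.4.6. Sequences were read with pysam 0.24.0, intervals computed with scipy 1.17.1 and plots drawn with matplotlib 3.10.9. Promoters were taken from 37949 protein-coding transcripts of curated RefSeq (GRCm38.p6), and each gene was represented by its peak of highest Score. The classification was tested on simulated data for female day 4 against vehicle, in which 200 of 200 planted genes were recovered. With 1 pooled list for each group no test was run, and percentages carry Wilson 95% intervals. The equal-number setting took the 37614 highest Scores of the day 4 list and left the vehicle list whole. The limit fell within 6439 peaks of Score 27, of which the 5398 with the most normalized tags were taken. Other alternatives ranked peaks by fold or normalized tags, required a fold of 4 or 50% coverage, allowed a gap of 1 kb, or changed the window or transcripts.

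Named genes were the 10 gained and 10 lost promoters of highest Score that held in both settings, the 5 kept promoters of highest Score, up to 4 genes per class with the highest Score from each gene group, genes the study named for ChIP, and all glucocorticoid targets. A few genes chosen by this rule are not reported here. Further list members named as examples were chosen after their values were seen. The members and lists were chosen with earlier results of these data known.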

Additional observations from a re-analysis of the deposited data

Results flagged for a closer look

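The difference between day 4 and vehicle in the number of genes with a promoter peak had opposite signs in the sexes. In females 10415 genes were marked at day 4 and 5024 in vehicle, a difference of 5391. In males 5610 were marked at day 4 and 10085 in vehicle, a difference of -4475. The male day 4 list rested on 7.52 M tags and the male vehicle list on 31.6 M, whereas in females the day 4 list was the deeper, with 49.0 M against 27.5 M. With 1 list for each group the difference between the sexes was not tested.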

How the results depend on the processing

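The number of gained promoter genes stayed within 1.5 times the 4509 reported in every alternative except that requiring the peak centre in the window, which gave 2452. Kept genes numbered 2149 when 50% of a peak had to be covered and 2005 by peak centre. Lost genes numbered 837 with equal numbers by Score, 730 by fold and 177 by normalized tags, so this count depended on the ranking. With a fold of at least 4 they numbered 383. Gained autosomal peaks numbered 27887, 29834 and 26281 with equal numbers by Score, fold and normalized tags. The share of gained genes marked at day 6 and day 8 (92.7%) was 95.7%, 93.8% and 96.8% in these 3 settings, 93.8% with a fold of at least 4 and with 50% coverage, 91.6% with a window of 1 kb on both sides and 43.3% by peak centre. The share marked in vehicle-treated males (71.3%) was 75.2%, 74.3% and 76.4% with equal numbers, 74.8% with a fold of at least 4, 74.1% with 50% coverage, 76.7% with the wider window and 50.7% by peak centre. By construction the last setting asks for a centre in the window in every list. A gap of up to 1 kb and protein-coding transcripts alone moved none of these values beyond its limit. Of the gained, kept and lost counts of the gene lists, 26 moved by more than 1.5 times with equal numbers by Score and 58 did not. No paired analysis was possible because the peak lists used here hold both libraries of a group together, so that no replicate could be left out. The reads were not analysed here. Depth limits what absence means: a promoter without a peak may hold tags below the lowest Score of its list.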
